A study of Homo sapiens with 9 samples.

Results

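The integrin chains described here are the 10 genes ITGA3, ITGA4, ITGA5, ITGA6, ITGAV, ITGB3, ITGB4, ITGB5, ITGB6 and ITGB8, which make receptors for laminin, fibronectin and vitronectin. They were taken by gene name from the 58735 genes of the deposited expression tables, and each name matched 1 row. The cells were PaTu 8988t, an established human pancreatic tumour line, and 3 RNA sequencing libraries were made per group. The groups met a matrix labelled CPXM2WT OE ECM (wild type), a matrix labelled CPXM2R213A OE ECM (R213A), or a matrix labelled Ctrl ECM (control). CPXM2 is a secreted protein of the carboxypeptidase family with a collagen-binding discoidin domain, and the study asked how collagen aligned by it affects these cells. All groups used the same tumour line, and no source used here gives the cells that made the matrix, the time of contact or whether replicates were separate cultures. The p-values thus rest on the spread among the libraries as sequenced, and that spread could be technical.

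Integrins are receptors of 1 alpha and 1 beta chain that cross the plasma membrane and tie the cytoskeleton to the extracellular matrix. ITGA3 and ITGA6 bind laminins, ITGA6 with ITGB4 anchors epithelial cells through hemidesmosomes, and ITGA5 with ITGB1 is the classical fibronectin receptor. ITGAV joins several beta chains to bind vitronectin, fibronectin and the latent form of TGF-beta. In carcinoma cells the laminin-binding chains and the ITGAV receptors are known for their part in adhesion, spreading and migration on matrix.

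The authors deposited FPKM, fragments scaled by gene length and by a factor for each library, in 2 tables. The 4-library table held wild type 1, R213A 1, R213A 3 and control 1, and the 5-library table held wild type 2, wild type 3, R213A 2, control 2 and control 3. Total reads recovered from the values lay between 15951927 and 18312806 per library, and 20059 to 21401 genes had at least 1 read. The tables stood apart from each other, and control 2 stood apart within its table, so group differences of the integrin chains were fitted with the table as a term, and are also given inside each table and, against control, without control 2. Control 1 was the only control of the 4-library table, so every difference from control in that table rests on it. GC content and gene length accounted for 1.19% of the variance of its deviation from the mean of all libraries, and for 21.2% to 38.1% in the other 8 libraries. Mean log2 levels differed by at least 1 between the tables in 28.8% of the 11193 genes tested. Keratin genes KRT8 and KRT18 were abundant at means of 153 and 348 FPKM, and EPCAM and MUC1 had means of 4.57 and 1.14 FPKM. The other 3 ductal markers, KRT7, KRT19 and CDH1, were near 0, at means of 0.229, 0.0217 and 0.0736 FPKM. The mesenchymal state markers VIM, CDH2 and ZEB1 had means of 138, 9.60 and 3.85 FPKM. None of the 10 fibroblast, 6 endothelial or 4 platelet marker genes reached a mean of 1 FPKM, the highest single mean being 0.396 FPKM. Of 6 leukocyte markers 1 did, the integrin chain ITGB2, at a mean of 1.48 FPKM. In bulk samples of this kind, fewer cells with a transcript and less transcript per cell cannot be told apart.

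Of the 10 chains, 6 were expressed at a mean of at least 1 FPKM and 4 were at or near 0. By mean over the 9 libraries the order was ITGA3 at 156 FPKM, ITGA6 at 55.0, ITGAV at 22.9, ITGB5 at 20.7, ITGA5 at 19.5, ITGB4 at 12.3, ITGB3 at 0.1501, ITGA4 at 0.0139, ITGB8 at 0.00939 and ITGB6 at 0. ITGA3 exceeded ITGA6, ITGA6 exceeded ITGAV, and ITGA5 exceeded ITGB4 in 9 of 9 libraries. The order in the middle was not fixed: ITGAV exceeded ITGB5 in 5 of 5 libraries of the larger table and in 0 of 4 libraries of the smaller. ITGB5 exceeded ITGA5 in 7 of 9 libraries. Over all libraries the ranges of neighbouring chains overlapped for every pair in this order except ITGB4 and ITGB3.

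**Figure D1:**
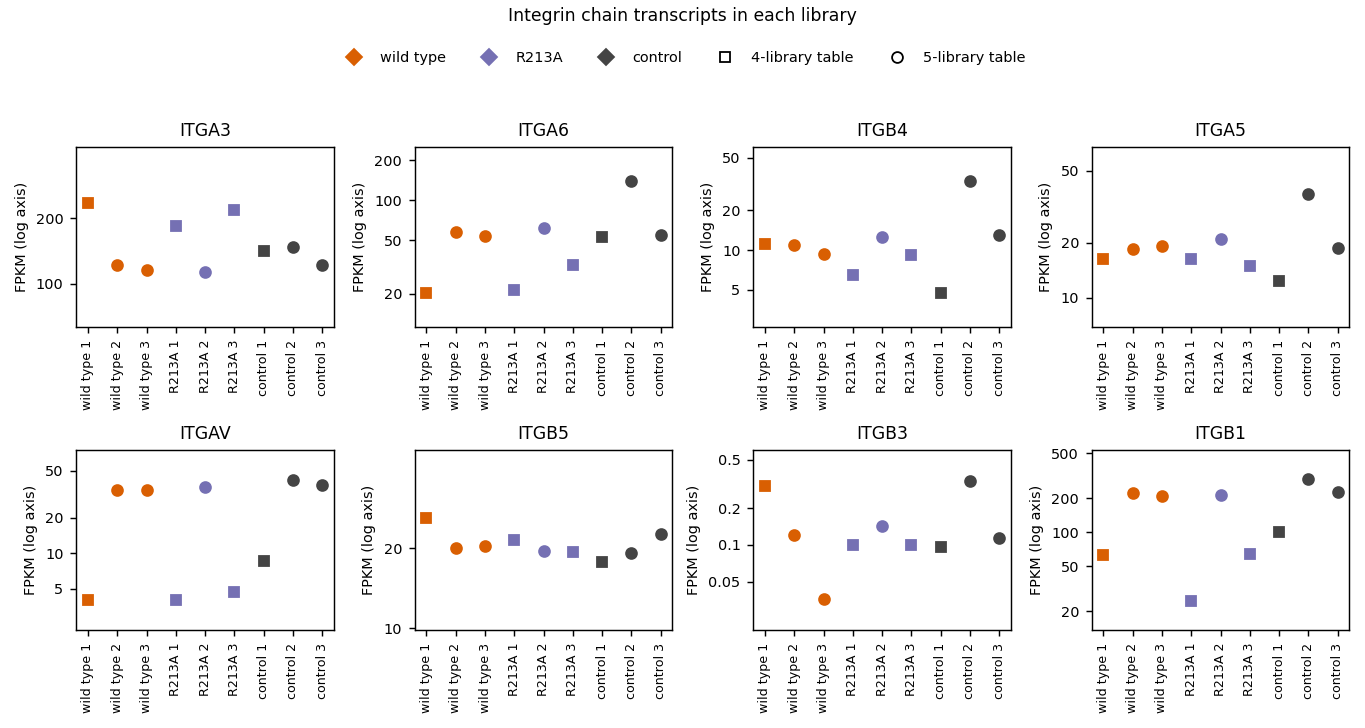
FPKM on log axes, with an axis of its own for each gene, of the 7 integrin chains with reads in every library and of ITGB1, in each of the 9 libraries. Colour marks the group and marker shape the deposited table, and ITGAV, ITGB1, ITGA5 and ITGA6 are lower in every library of the 4-library table than in any of the 5-library table, with 4.01 to 8.59 FPKM of ITGAV in the 4-library table and 34.3 to 41.6 FPKM in the 5-library table.

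ITGA3 (ENSG00000005884, hg38 chromosome 17, 50055968 to 50090481, plus strand) encodes the alpha chain that with ITGB1 binds the laminins of epithelial basement membranes. It had 236, 122 and 116 FPKM in wild type libraries 1 to 3, and 183, 113 and 219 FPKM in R213A libraries 1 to 3, against 141, 148 and 122 FPKM in control libraries 1 to 3. The 3 highest values, 236, 219 and 183 FPKM, were those of wild type 1, R213A 3 and R213A 1, all in the 4-library table, and the groups overlapped. ITGA3 averaged 158 ± 67.9 FPKM in wild type, 172 ± 53.7 in R213A and 137 ± 13.4 in control (SD, n = 3 each).

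ITGA6 (ENSG00000091409, hg38 chromosome 2, 172427354 to 172506282, plus strand) encodes the other laminin-binding alpha chain, which pairs with ITGB1 or with ITGB4. Its values were 20.2, 57.8 and 54.1 FPKM in wild type and 21.2, 61.8 and 32.5 FPKM in R213A, against 53.5, 139 and 55.4 FPKM in control. Control 2 was the highest library, and wild type 1, R213A 1 and R213A 3 were the lowest. In the 4-library table all 3 libraries on CPXM2 matrix lay below control 1, whereas in the 5-library table control 3 lay between the CPXM2 libraries. The tables separated, at 20.2 to 53.5 FPKM in the 4-library table and 54.1 to 139 FPKM in the 5-library table. ITGA6 averaged 44.0 ± 20.7 FPKM in wild type, 38.5 ± 21.0 in R213A and 82.6 ± 48.8 in control (SD, n = 3 each).

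ITGB4 (ENSG00000132470, hg38 chromosome 17, 75721328 to 75757818, plus strand) encodes the beta chain that pairs only with ITGA6 and binds plectin in hemidesmosomes. It had 11.1, 10.9 and 9.36 FPKM in wild type and 6.45, 12.6 and 9.15 FPKM in R213A, against 4.69, 33.4 and 13.0 FPKM in control. The control libraries held both the lowest and the highest value, and the groups overlapped. ITGB4 averaged 10.4 ± 0.941 FPKM in wild type, 9.41 ± 3.09 in R213A and 17.0 ± 14.8 in control (SD, n = 3 each). The gene for galactokinase, GALK1, overlaps the end of ITGB4 on the opposite strand, and it had 11.4, 3.01 and 3.85 FPKM in wild type and 36.5, 3.34 and 13.7 FPKM in R213A, against 8.67, 4.09 and 2.99 FPKM in control. The library kit keeps the strand per the labels' protocols, but no source used here states whether the counting did, and a share of GALK1 reads in the ITGB4 values was not tested.

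ITGA5 (ENSG00000161638, hg38 chromosome 12, 54395261 to 54419460, minus strand) encodes the fibronectin-binding alpha chain. It had 16.4, 18.6 and 19.2 FPKM in wild type and 16.3, 21.0 and 15.0 FPKM in R213A, against 12.4, 37.3 and 18.9 FPKM in control. Again control 2 was the highest and control 1 the lowest, and the other 7 libraries lay between them. The tables separated, at 12.4 to 16.4 FPKM in the 4-library table and 18.6 to 37.3 FPKM in the 5-library table.

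ITGAV (ENSG00000138448, hg38 chromosome 2, 186590065 to 186680901, plus strand) encodes the alpha chain of the vitronectin receptors. Its values were 4.03, 34.6 and 34.3 FPKM in wild type and 4.01, 36.4 and 4.67 FPKM in R213A, against 8.59, 41.6 and 37.8 FPKM in control. In the 4-library table the libraries on CPXM2 matrix had 4.01 to 4.67 FPKM, against 8.59 FPKM in control 1. In the 5-library table they had 34.3 to 36.4 FPKM, against 37.8 and 41.6 FPKM in the controls. Pooled over tables the groups overlapped, and ITGAV averaged 24.3 ± 17.6 FPKM in wild type, 15.0 ± 18.5 in R213A and 29.3 ± 18.1 in control (SD, n = 3 each).

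ITGB5 (ENSG00000082781, hg38 chromosome 3, 124761948 to 124901418, minus strand) encodes a beta chain that joins ITGAV in a vitronectin receptor. It was the steadiest of the expressed chains, with 26.1, 20.03 and 20.5 FPKM in wild type and 21.5, 19.5 and 19.3 FPKM in R213A, against 17.7, 19.2 and 22.6 FPKM in control. Its 9 values spanned 17.7 to 26.1 FPKM, and neither the groups nor the tables separated.

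ITGB3 (ENSG00000259207, hg38 chromosome 17, 47253846 to 47311816, plus strand), the beta chain of platelets and endothelium that also joins ITGAV, was low in every library. It had 0.306, 0.121 and 0.0362 FPKM in wild type and 0.101, 0.143 and 0.0990 FPKM in R213A, against 0.0971, 0.333 and 0.114 FPKM in control. These values rest on 26, 10 and 3 reads in wild type, 6, 11 and 8 in R213A and 8, 24 and 9 in control, so wild type 3 is at the floor of 3 reads that a count of 0 allows. The 6 endothelial markers summed to 0.0834 to 0.802 FPKM in wild type, 0.162 to 0.522 in R213A and 0.211 to 1.03 in control. Their sum was highest in control 2, like ITGB3, but lowest in wild type 1, the library with the next highest ITGB3 at 0.306 FPKM. The part of endothelial transcripts in the ITGB3 level was not tested.

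ITGA4 (ENSG00000115232, hg38 chromosome 2, 181457202 to 181536187, plus strand), the alpha chain by which leukocytes bind VCAM1 and fibronectin, had 0, 7 and 2 reads in wild type and 2, 0 and 1 in R213A, against 0, 5 and 0 in control. ITGB8 (ENSG00000105855, hg38 chromosome 7, 20330702 to 20415754, plus strand), a partner of ITGAV in releasing TGF-beta from its latent form, had 3, 1 and 7 reads in wild type and 0, 1 and 0 in R213A, against 0, 6 and 5 in control. Neither gene was above 0.0472 FPKM in any library. ITGB6 (ENSG00000115221, hg38 chromosome 2, 160099666 to 160200313, minus strand), the epithelial partner of ITGAV that also frees TGF-beta, had 0 reads in each of the 9 libraries. At these depths 3 reads of it would be 0.0331 to 0.0472 FPKM, a limit that covers counting error only.

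Promoter sequence is shown for ITGA6 and ITGAV, the members with the lowest values in the 4-library table relative to the 5-library table, for ITGB5, the steadiest member, and for ITGB6, which had no reads. RefSeq promoter entries on GRCh38.p14 matched 7 of the 10 members. Each run below is 5′ to 3′ on the strand of the gene and holds only bases before the RefSeq start site and before the gene start in the deposited tables. Capitals mark matches to the searched motifs.
ITGA6: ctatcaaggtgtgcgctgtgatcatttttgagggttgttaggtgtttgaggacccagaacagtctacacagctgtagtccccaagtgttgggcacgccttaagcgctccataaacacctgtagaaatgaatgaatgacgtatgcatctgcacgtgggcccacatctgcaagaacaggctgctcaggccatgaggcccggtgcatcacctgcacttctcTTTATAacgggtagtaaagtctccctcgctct
ITGAV: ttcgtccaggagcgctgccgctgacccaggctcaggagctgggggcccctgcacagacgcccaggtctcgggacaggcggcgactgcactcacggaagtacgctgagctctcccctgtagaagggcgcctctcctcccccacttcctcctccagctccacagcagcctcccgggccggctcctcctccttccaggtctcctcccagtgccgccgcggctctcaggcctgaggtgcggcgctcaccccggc
ITGB5: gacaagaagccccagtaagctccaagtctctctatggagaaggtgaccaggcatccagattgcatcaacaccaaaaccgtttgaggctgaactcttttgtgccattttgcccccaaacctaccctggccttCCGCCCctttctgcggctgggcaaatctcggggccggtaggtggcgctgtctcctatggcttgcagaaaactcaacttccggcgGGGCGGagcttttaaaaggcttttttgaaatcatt
ITGB6: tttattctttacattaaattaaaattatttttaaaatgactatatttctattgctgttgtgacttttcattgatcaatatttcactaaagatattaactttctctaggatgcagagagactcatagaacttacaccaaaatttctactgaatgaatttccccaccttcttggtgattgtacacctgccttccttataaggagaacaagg
The ITGA6 run is chr2:172427086-172427335 on the plus strand and the ITGAV run is chr2:186589806-186590055 on the plus strand. The ITGB5 run is chr3:124901419-124901668 and the ITGB6 run is chr2:160200314-160200522, both on the minus strand. The motifs searched on both strands were the AP-1 element TGANTCA, the GC box GGGCGG and the TATA box TATAAA, and no match overlapped another.

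The 4 promoters differed in base composition. ITGAV had 70.8% G and C with 18 CpG dinucleotides in 250 bases, and ITGB6 had 30.1% with 0 CpG in 209 bases. ITGA6 had 50.8% with 8 CpG, and ITGB5 had 52.8% with 9 CpG. The median over 35116 RefSeq promoters was 58% and 11 CpG. ITGA6 held 1 TATA box match, on the strand opposite to the gene, with its first base at position -32 from the start site, a motif present in 10.7% of all promoters. ITGB5 held 2 GC box matches, a motif present in 42.6% of all promoters. The AP-1 element, present in 6.57% of all promoters, was in none of these 4 windows, and a match or its absence is a description of letters only.

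On the matrix with wild type CPXM2, none of the 6 expressed chains differed from control past the adjusted threshold of 0.05. The fit was limma on log2(FPKM + 1), a scale that understates changes of low genes, with terms for group and table and Benjamini-Hochberg adjustment over 11193 genes. No gene of the 11193 passed either (0%), and the smallest adjusted p was 0.757. ITGA6 had the largest difference of the members from control, at -0.88 ± 0.33 (SE) on the log2 scale, with a 95% interval of -1.63 to -0.13, an unadjusted limma p of 0.0254 and an adjusted p of 0.757. ITGAV followed at -0.44 ± 0.20, with an interval of -0.89 to 0.01 and an adjusted limma p of 0.757. An unadjusted limma p under 0.05 was found in 1 of the 6 members, against 503 genes or 4.49% of all, and limma-voom on the recovered reads also called 0 genes.

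The other chains were closer to 0 in wild type minus control. The log2 differences were 0.13 ± 0.25 for ITGA3, 0.15 ± 0.18 for ITGB5, -0.19 ± 0.27 for ITGA5 and -0.29 ± 0.43 for ITGB4, with SE. Their 95% intervals were -0.42 to 0.68 for ITGA3, -0.26 to 0.56 for ITGB5, -0.79 to 0.42 for ITGA5 and -1.27 to 0.68 for ITGB4. With 3 libraries per group the data leave differences within these intervals possible, and the intervals are not limits of detection. The median of the 6 members was -0.24 with 4 of 6 below 0, beside a median of -0.03 and 53.7% below 0 over all genes.

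Taken table by table, wild type minus control had opposite signs for several chains. In the 4-library table, with 1 library of each group and so no replicate check, the log2 differences were -1.36 for ITGA6 and -0.93 for ITGAV, and 1.09 for ITGB4, 0.74 for ITGA3, 0.53 for ITGB5 and 0.38 for ITGA5. On the log2(FPKM + 1) scale ITGA6 and ITGB4 were 2 of 6 members with a difference of at least 1 in size. Of all genes 16.6% differed by that much in that table. ITGAV, at 4.03 FPKM in wild type 1 and 8.59 FPKM in control 1, stayed under that size at -0.93, and the added 1 shrinks such differences. In the 5-library table all 6 members were below 0, from -0.98 for ITGB4 and -0.64 for ITGA6 to -0.04 for ITGB5, where 52.3% of all genes were below 0. None of the 6 members differed by at least 1 in size there on the log2(FPKM + 1) scale, against 0.357% of all genes. Without control 2 the differences in the 5-library table were 0.01 for ITGA6, -0.33 for ITGB4, 0.00420 for ITGA5, -0.13 for ITGAV, -0.04 for ITGA3 and -0.15 for ITGB5. In the fit over both tables, leaving out control 2 turned ITGA5 to 0.16 and ITGB4 to 0.27 and left ITGA6 at -0.60 and ITGAV at -0.50.

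**Figure D2:**
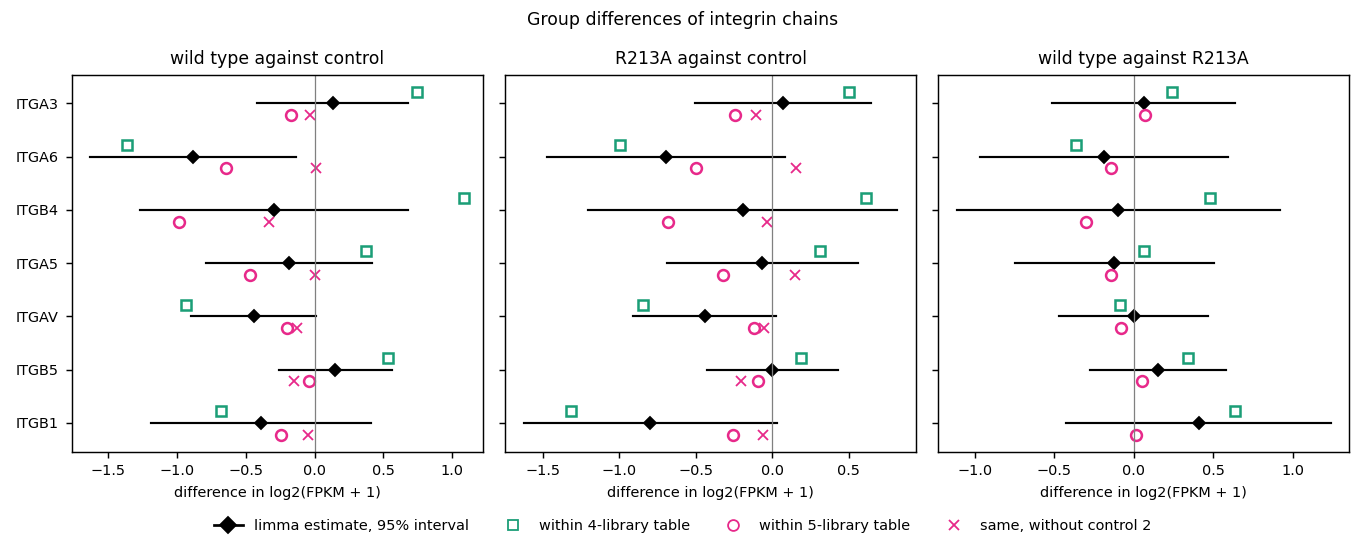
Difference in log2(FPKM + 1) of the 6 expressed members and ITGB1 in 3 panels, one for each pair of matrices, with the group named first minus the other. Diamonds with lines are limma estimates with 95% intervals over both tables, squares and circles are the differences within the 4-library and the 5-library table, and crosses leave out control 2. For ITGB4 in wild type against control the table values lie on opposite sides of 0, at 1.09 for the smaller table and -0.98 for the larger.

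On the matrix with the R213A mutant, none of the 6 expressed chains passed the threshold against control. ITGA6 was at -0.70 ± 0.35 (SE) on the log2 scale relative to control, with a 95% interval of -1.47 to 0.08 and an adjusted limma p of 0.690. ITGAV was at -0.44 ± 0.21, with an interval of -0.91 to 0.03 and the same adjusted limma p of 0.690. No gene of the 11193 passed (0%), and 0 of 6 members had an unadjusted p under 0.05, against 341 genes or 3.05% of all, and limma-voom also called 0. This comparison and the wild type one share their 3 control libraries, so their values are not independent of each other.

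In R213A minus control the remaining log2 differences were 0.07 ± 0.26 for ITGA3, -0.07 ± 0.28 for ITGA5, -0.19 ± 0.45 for ITGB4 and 0.000874 ± 0.19 for ITGB5, with SE. Within the 4-library table, where 2 R213A libraries stood against 1 control, the differences were -0.997 for ITGA6, -0.85 for ITGAV, 0.61 for ITGB4, 0.50 for ITGA3, 0.31 for ITGA5 and 0.19 for ITGB5. On the log2(FPKM + 1) scale 0 of 6 members differed by at least 1 in size, against 8.40% of all genes. Within the 5-library table the differences were -0.50 for ITGA6, -0.12 for ITGAV, -0.69 for ITGB4, -0.24 for ITGA3, -0.32 for ITGA5 and -0.09 for ITGB5. There 0 of 6 members differed by at least 1 in size on that scale, against 0.527% of all genes. Without control 2 that table gave 0.16 for ITGA6, -0.05 for ITGAV, -0.04 for ITGB4, -0.11 for ITGA3, 0.15 for ITGA5 and -0.21 for ITGB5. The median of the 6 members over both tables was -0.13 with 4 of 6 below 0, beside a median of -0.02 and 51.9% below 0 over all genes. In the fit over both tables, leaving out control 2 turned ITGA5 to 0.22 and ITGB4 to 0.27, and left ITGA6 at -0.46 and ITGAV at -0.49.

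The direct comparison set the wild type matrix against the R213A matrix, and none of the 6 expressed chains differed past the threshold. The chains gave log2 differences, wild type minus R213A, of 0.06 ± 0.26 for ITGA3, -0.19 ± 0.35 for ITGA6, -0.10 ± 0.45 for ITGB4, -0.12 ± 0.28 for ITGA5, -0.000725 ± 0.21 for ITGAV and 0.15 ± 0.19 for ITGB5, with SE. The adjusted limma p was 0.999 for ITGAV and 0.996 for the other 5 chains, and no gene of the 11193 passed (0%). None of the 6 members had an unadjusted p under 0.05, against 117 genes or 1.05% of all, and limma-voom also called 0. The 95% intervals ran from -0.47 to 0.47 for ITGAV, -0.28 to 0.58 for ITGB5, -0.51 to 0.63 for ITGA3, -0.75 to 0.51 for ITGA5, -0.96 to 0.59 for ITGA6 and -1.11 to 0.92 for ITGB4. Differences within those bounds remain possible, and the bounds are not limits of detection. Inside the 4-library table the differences were 0.24 for ITGA3, -0.36 for ITGA6, 0.48 for ITGB4, 0.07 for ITGA5, -0.09 for ITGAV and 0.34 for ITGB5. Inside the 5-library table they were 0.07 for ITGA3, -0.14 for ITGA6, -0.30 for ITGB4, -0.15 for ITGA5, -0.08 for ITGAV and 0.05 for ITGB5. Past 2-fold were 0 of 6 members in the 4-library table, against 6.51% of all genes, and 0 of 6 in the 5-library table, against 0.277%. The median of the 6 members was -0.05, with 4 of 6 below 0, beside a median of -0.00832 and 51.5% below 0 over all genes.

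Whether the group differences themselves differed between the deposited tables was tested with a group-by-table interaction in limma, which left 3 residual degrees of freedom. None of the 6 members and no other gene (0%) passed after adjustment, while an unadjusted p under 0.05 was found in 1696 genes or 15.2% of all, and limma-voom called 0 as well. Among members it was found for ITGB4 alone, at 0.0461 unadjusted and 0.322 adjusted. ITGAV had an adjusted limma p of 0.377, ITGA3 0.403, ITGB5 0.534, ITGA5 0.549 and ITGA6 0.760.

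The split by table was larger than any group difference for ITGAV. The mean log2 level in the 4-library table minus that in the 5-library table was -2.64 for ITGAV, -1.19 for ITGA6, -0.84 for ITGB4, -0.54 for ITGA5, 0.04 for ITGB5 and 0.63 for ITGA3, beside a median of -0.08 over all genes. ITGAV and ITGA6 were 2 of 6 members lower by at least 1, against 15.8% of all genes. Base composition moved with this split: with the genes in 5 bins of equal size by GC content, the median was -0.78 in the lowest bin and 0.62 in the highest. The longest annotated transcripts of ITGAV and ITGA6 have 38.3% and 42.9% GC, those of ITGB5 and ITGA5 54.3% and 54.5%, and those of ITGA3 and ITGB4 61.3% and 63.7%. After a correction for GC content and gene length the split was -1.73 for ITGAV, -0.59 for ITGA6, -1.22 for ITGB4, -0.55 for ITGA5, -0.01 for ITGB5 and 0.38 for ITGA3.

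The same correction bears on the comparisons with control. In the 4-library table the median of wild type minus control was -0.40 in the lowest GC bin and 0.34 in the highest, and in the 5-library table it was -0.02 in both. Corrected in this way, ITGA6 was at -0.75 and ITGAV at -0.26 in wild type minus control, each with an adjusted limma p of 0.750. In R213A minus control ITGA6 was at -0.51 and ITGAV at -0.19, each with an adjusted limma p of 0.901.

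**Figure D3:**
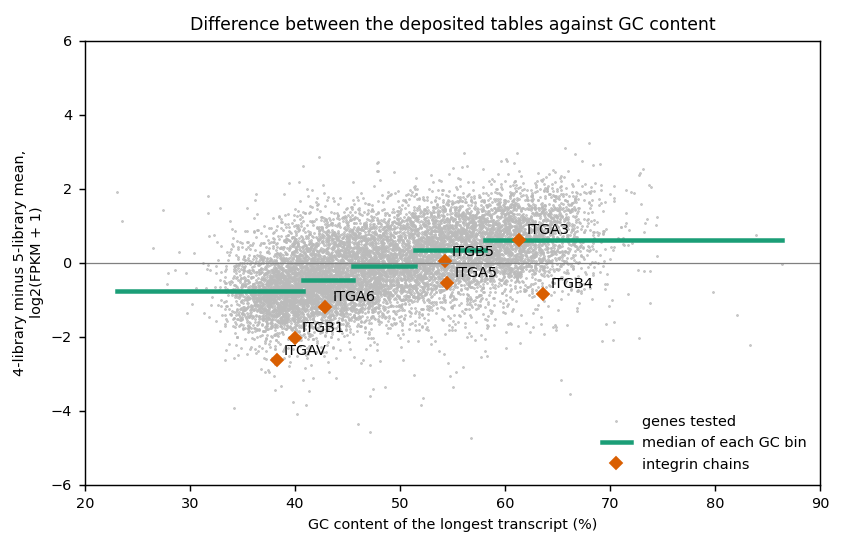
Mean log2(FPKM + 1) of the 4-library table minus that of the 5-library table, against the GC content in percent of the longest transcript, for the genes tested (grey points), with the median of each of 5 equal bins by GC (lines) and the integrin chains (diamonds). The medians run from -0.78 in the lowest bin to 0.62 in the highest, ITGAV lies at -2.64, and ITGB4 lies at -0.84 in the highest bin.

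Control 2 was high for the laminin and fibronectin chains. Relative to the mean of the other 4 libraries of its table, its log2 level was 1.47 higher for ITGB4, 1.26 for ITGA6, 0.91 for ITGA5, 0.32 for ITGA3 and 0.21 for ITGAV, whereas ITGB5 was 0.10 lower. ITGB4 and ITGA6 were 2 of 6 members higher by at least 1, against 1.54% of all genes, a description of 1 library with no test. Control 2 also had the highest summed level of the listed integrin ligands, at 2883 FPKM, of which CCN1 made up 1325 and CCN2 1093 FPKM. The lowest control, control 1 of the 4-library table, had a ligand sum of 819 FPKM. The sum of mitochondrial transcripts was lowest in control 2, at 12563 FPKM. The part of these levels in the result for control 2 was not tested.

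The shared beta chain ITGB1, a partner of ITGA3, ITGA4, ITGA5, ITGA6 and ITGAV, was the most abundant integrin transcript beside ITGA3. ITGB1 had 62.2, 223 and 211 FPKM in wild type and 24.5, 215 and 64.0 FPKM in R213A, against 100.2, 295 and 225 FPKM in control. Like ITGAV it separated by table, with a log2 difference of -2.03 between the table means, 4-library minus 5-library, and its transcript has 40.0% GC. Its log2 difference was -0.39 ± 0.36 in wild type minus control and -0.80 ± 0.37 in R213A minus control, with SE and adjusted limma p of 0.771 and 0.690. Wild type minus control was -0.68 for ITGB1 in the 4-library table, -0.25 in the 5-library table and, leaving out control 2, -0.05, and R213A minus control was -1.31, -0.26 and -0.06 in the same order.

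Because partner chains form one receptor, their ratio was taken within each library, where the scaling of the library cancels. The FPKM ratio of ITGB4 to ITGA6, the hemidesmosome pair, was 0.549, 0.188 and 0.173 in wild type and 0.304, 0.204 and 0.281 in R213A, against 0.0878, 0.240 and 0.234 in control. In the 4-library table the 3 libraries on CPXM2 matrix were above control 1, and in the 5-library table they were below both controls, so the direction differed between tables. The ratio of ITGAV to ITGB5, the vitronectin receptor pair, was 0.154, 1.73 and 1.67 in wild type and 0.187, 1.87 and 0.242 in R213A, against 0.485, 2.17 and 1.67 in control. Every library of the 5-library table had more ITGAV than ITGB5, and every library of the 4-library table had less. The ratio of ITGA3 to ITGB1 was 3.80, 0.546 and 0.550 in wild type and 7.49, 0.527 and 3.42 in R213A, against 1.41, 0.501 and 0.543 in control. These ratios hold genes of unlike GC content, whose part in them was not tested.

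ITGA3 supplied the largest share of alpha chain transcripts in each of the 9 libraries. Of the summed FPKM of 18 alpha chains it made up 83.9%, 49.2% and 48.9% in wild type and 79.4%, 45.5% and 79.4% in R213A, against 64.0%, 38.9% and 49.0% in control. ITGA6 made up 7.16%, 23.3% and 22.8% in wild type and 9.18%, 24.8% and 11.8% in R213A, against 24.2%, 36.5% and 22.2% in control. ITGAV stayed between 1.43% and 3.90% in the 4-library table and between 10.96% and 15.2% in the 5-library table. Among 8 beta chains ITGB1 made up 46.4% to 87.0%, ITGB5 5.49% to 40.7% and ITGB4 3.82% to 12.2%. A share of FPKM compares levels per gene length, and it moves with every other chain in its sum.

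**Figure D4:**
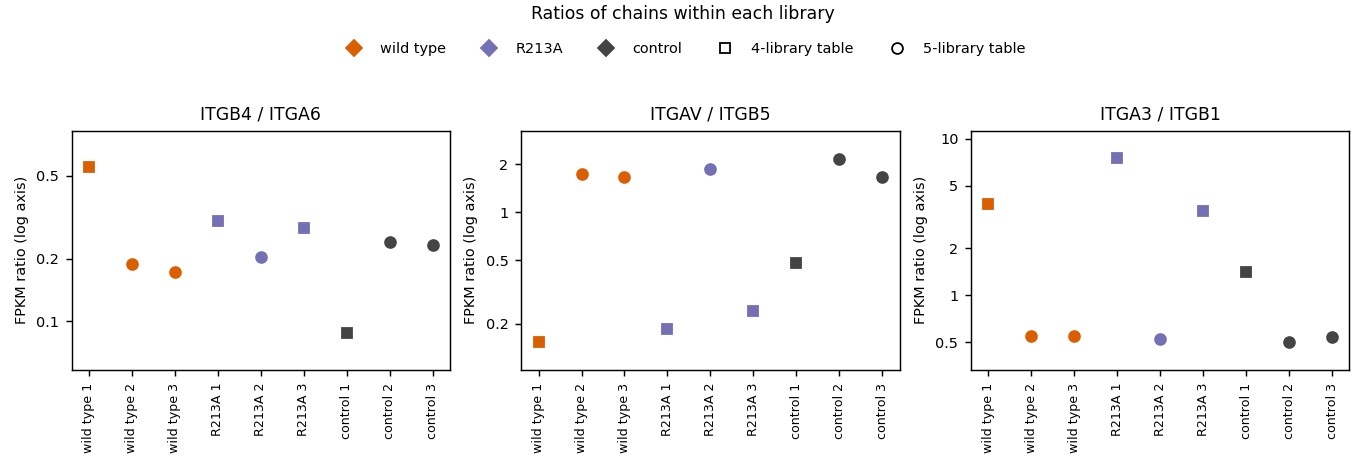
FPKM ratios on log axes of ITGB4 to ITGA6, ITGAV to ITGB5 and ITGA3 to ITGB1 in each of the 9 libraries, with colour for the group and marker shape for the deposited table. The ratio of ITGAV to ITGB5 is 0.154 to 0.485 in the 4-library table and 1.67 to 2.17 in the 5-library table, in all groups.

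**Figure D5:**
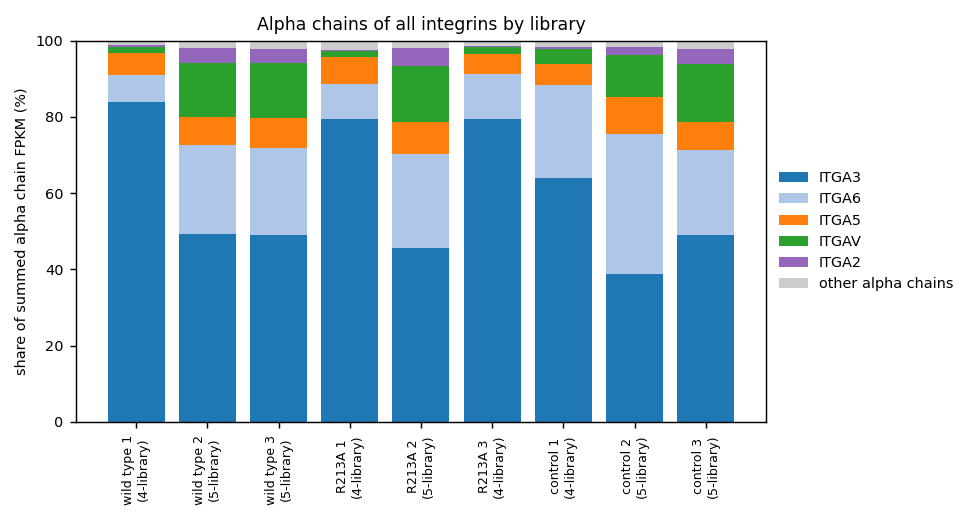
Share in percent of the summed FPKM of 18 integrin alpha chains taken by ITGA3, ITGA6, ITGA5, ITGAV, ITGA2 and the remaining chains, as stacked bars per library. ITGA3 takes 64.0% or more in the 4 libraries of the 4-library table and 38.9% to 49.2% in the 5-library table.

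Transcripts of some ligands of these receptors were present in the cells. Of 27 listed ligand genes 10 reached a mean of 1 FPKM. None was called in any comparison, where 0% of the 11193 genes were called. LAMB3, a beta chain of epithelial laminin, had 108, 103 and 109.5 FPKM in wild type and 85.8, 111 and 90.0 FPKM in R213A, against 56.3, 173 and 100.2 FPKM in control. The laminin alpha chain LAMA3 stayed between 0.321 and 0.923 FPKM, whereas LAMA5, another laminin alpha chain, lay between 13.6 and 23.9 FPKM. The fibronectin gene FN1 averaged 0.756 FPKM and the vitronectin gene VTN 0.0245 FPKM. The median log2 difference of the 10 ligands was -0.04 in wild type minus control and -0.07 in R213A minus control, with 6 and 5 of 10 below 0, beside 53.7% and 51.9% of all genes. The tables gave opposite signs: the wild type median was 0.63 in the 4-library table, -0.37 in the 5-library table and, leaving out control 2, 0.06, and the R213A median was 0.28, -0.35 and 0.07 in the same order.

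CCN1, a matricellular ligand of the ITGAV receptors, had 66.6, 816 and 836 FPKM in wild type and 339, 788 and 301 FPKM in R213A, against 434, 1325 and 798 FPKM in control. Its log2 difference in wild type minus control was -1.11 ± 0.48 (SE), with an adjusted limma p of 0.757, and wild type 1 was the lowest library. That CCN1 difference was -2.69 in the 4-library table, -0.32 in the 5-library table and, leaving out control 2, 0.05. LAMB1, a laminin beta chain, was at -0.64 ± 0.27 (SE) in R213A minus control, with an adjusted limma p of 0.690. For LAMB1 this was -0.80 in the 4-library table, -0.37 in the 5-library table and, leaving out control 2, 0.09.

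The proteins that link integrins to actin were also counted as a list. Of 29 activators and adaptors 22 were tested and 0 passed in any comparison, where 0% of the 11193 genes passed. In wild type minus control 15 of 22 were below 0 with a median of -0.14, in R213A minus control 14 of 22 with a median of -0.20, and in wild type minus R213A 16 of 22 with a median of -0.06. Of all genes 53.7%, 51.9% and 51.5% were below 0 in the same comparisons. In wild type minus control 11 of 22 were below 0 in the 4-library table and 17 of 22 in the 5-library table, beside 54.0% and 52.3% of all genes. Without control 2 the medians of that table were -0.02 in wild type and -0.0092 in R213A minus control. VCL, vinculin of focal adhesions, had 8.62, 53.9 and 50.8 FPKM in wild type and 14.0, 51.7 and 18.7 FPKM in R213A, against 37.5, 74.5 and 51.9 FPKM in control. Its log2 difference in wild type minus control was -0.83 ± 0.33 (SE), with an adjusted limma p of 0.757. For VCL this was -2.00 in the 4-library table, -0.24 in the 5-library table and, leaving out control 2, 0.01. FERMT2, a kindlin that activates beta chains, was at -0.51 ± 0.25 in wild type minus control and -0.53 ± 0.26 in R213A minus control, with SE and adjusted limma p of 0.757 and 0.690. For FERMT2 the values without control 2 in the 5-library table were 0.06 and 0.15.

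Smaller lists held no calls either, where 0% of the 11193 genes passed in any comparison. Of 7 hemidesmosome genes 5 were tested and 0 passed, with medians of -0.04 in wild type minus control and -0.09 in R213A minus control. By table the wild type median was 0.11 in the 4-library table, -0.16 in the 5-library table and, leaving out control 2, 0.07, and the R213A median was 0.63, -0.20 and 0.14 in the same order. The tetraspanin CD151, which binds the laminin-binding integrins, had 114, 71.0 and 73.6 FPKM in wild type and 292, 68.1 and 149 FPKM in R213A, against 106, 91.0 and 67.4 FPKM in control. Of 18 genes for integrin processing and traffic 13 were tested and 0 passed. Below 0 were 10 of 13 in wild type minus control and 9 of 13 in R213A minus control, beside 53.7% and 51.9% of all genes. The medians of the 13 genes without control 2 in the 5-library table were -0.02 and -0.0077 in the same order. RAB11FIP1, an effector of integrin recycling, had a log2 difference of -0.52 ± 0.27 in wild type minus control and -0.72 ± 0.29 in R213A minus control, with SE and adjusted limma p of 0.757 and 0.690. For RAB11FIP1 the values without control 2 in the 5-library table were 0.02 and 0.06. Of the 16 other integrin chains 4 reached a mean of 1 FPKM, namely ITGB1, ITGA2, ITGAE and ITGB2, and 0 passed.

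Genes with a like pattern were sought for the members whose level ranged by at least 1 on the log2 scale within tables, ITGA6 at 1.36 and ITGB4 at 1.73. Over 9 libraries, with values centred within each table, the smallest root mean square difference from ITGA6 was that of NUP205, a nuclear pore gene, at 0.105, followed by SQLE, squalene epoxidase of sterol synthesis, at 0.133. For ITGB4 they were AARS1, the alanyl-tRNA synthetase, at 0.107 and FBXO27, an F-box gene, at 0.143. SQLE had 20.1, 159 and 159 FPKM in wild type and 20.5, 153 and 29.9 FPKM in R213A, against 49.8, 291 and 159 FPKM in control. Like ITGA6 it was highest in control 2 and lowest in wild type 1 and R213A 1.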

How the data were processed

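RNA of PaTu 8988t cells from 9 libraries, 3 per group, was sequenced after TruSeq stranded mRNA preparation, per the labels' protocols. The authors deposited gene-level FPKM in 2 tables, on hg38 with bcl2fastq named in the submitters' processing notes. No source used here names the aligner, the counter or its strand setting, or the annotation. FPKM times listed gene length gave whole reads within 0.01 reads, and the implied scaling differed from read totals by factors of 0.850 to 1.09. Symbols were matched for 58207 of 58735 identifiers.

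Levels were compared as log2(FPKM + 1) with limma 3.58.1 in R 4.3.3, with a mean-variance trend, for 11193 genes of mean 1 FPKM or more, with 5 residual degrees of freedom and Benjamini-Hochberg adjustment at 0.05. The fit was tested on simulated data with a capped spread, which does not show its power at the spread of these data. Lists were counted, not tested, and up to 4 genes of smallest p per list could be named. LAMB3, LAMA3, LAMA5, FN1, VTN, KRT7, KRT19, CDH1 and GALK1 are named outside that rule, after their values were seen. Members and lists were chosen with earlier results of these data known. Deviations from group means over both tables correlated, for libraries of the same table, at 0.335 to 0.843 between same-numbered libraries. Between differently numbered ones they correlated at 0.311 to 0.810. The split by table stays in these deviations, so the correlations cannot show whether numbers mark pairs. R213A 3 lies in another table than wild type 3 and control 3, and numbers were not treated as pairs. Alternatives covered pseudocount, filter, scaling, table term, replicate block, spread model, limma-voom on recovered reads, libraries and, chosen after seeing the data, a correction for GC content and gene length.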

Additional observations from a re-analysis of the deposited data

How the results depend on the processing

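Under 22 alternatives per comparison, ITGA6 and ITGAV kept their direction in wild type and in R213A against control, as did ITGB5 in wild type against control, though that fell to 0.0073 without wild type 1, and none of the 6 members passed the threshold in any. Inside the 5-library table without control 2, however, ITGA6 was 0.01 in wild type and 0.16 in R213A minus control. There ITGB5 was -0.15 in wild type minus control, and ITGAV was -0.13 and -0.05 in wild type and R213A minus control. In R213A against control, without the table term ITGAV was -1.30, ITGA6 -1.07 and ITGB4 -0.47, and with the replicate block ITGA6 was -1.01 and ITGB4 -0.51. Without a filter 1 gene, the pseudogene MAT2AP1, passed in wild type against control and 1, the same gene, in R213A against control. The group-by-table interaction then passed for 1971 genes, and for 2 under quantile normalization, with no member among them. The following log2 differences turned direction. In wild type against R213A, ITGAV was 0.00412 and 0.00184 with pseudocounts of 0.1 and 0.5, 0.00266 with median of ratios and 0.11 with limma-voom. Without the table term it was 0.86, with ITGA3 at -0.15, ITGA5 at 0.060, ITGA6 at 0.18 and ITGB4 at 0.18. With the replicate block ITGAV was 0.042, ITGA6 0.13 and ITGB4 0.21, and ITGB4 was 0.089 with only these groups fitted. In R213A against control, ITGA3 was -0.16 with quantile normalization, -0.053 with the replicate block and -0.013 with the GC and length correction, and ITGB5 was -0.078 with quantile normalization, -0.068 with limma-voom and -0.024 with that correction. With the replicate block, as without pairing, 0 genes passed in each comparison. The causes were not tested.

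Leaving out 1 library at a time, wild type against control ranged from -0.15 to 0.31 for ITGA3, -0.43 to 0.16 for ITGA5, -0.85 to 0.27 for ITGB4, -1.31 to -0.60 for ITGA6, -0.57 to -0.20 for ITGAV and 0.0073 to 0.26 for ITGB5. R213A against control ranged from -0.30 to 0.22 for ITGA3, -0.39 to 0.22 for ITGA5, -0.94 to 0.27 for ITGB4, -0.19 to 0.10 for ITGB5, -1.05 to -0.43 for ITGA6 and -0.60 to -0.12 for ITGAV. Wild type against R213A ranged from -0.18 to 0.15 for ITGA3, -0.36 to -0.040 for ITGA5, -0.34 to 0.023 for ITGA6, -0.082 to 0.16 for ITGAV, -0.73 to 0.090 for ITGB4 and -0.041 to 0.20 for ITGB5. Leaving out a group's only library in a table, such as control 1, leaves its difference to the other table. The number of genes at an unadjusted limma p under 0.05 was 503, 341 and 117 in the 3 comparisons, and 403, 208 and 86 with limma-voom, which called 0 in each.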

Other observations

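Among integrin chains outside the laminin, fibronectin and vitronectin group, ITGA2, a collagen-binding alpha chain, had 1.29, 10.1 and 8.70 FPKM in wild type and 0.410, 11.8 and 0.550 FPKM in R213A, against 1.37, 8.48 and 9.59 FPKM in control. ITGB2, the beta chain of leukocytes, had 0.479, 2.49 and 2.44 FPKM in wild type and 0.282, 2.69 and 0.368 FPKM in R213A, against 0.173, 1.43 and 3.01 FPKM in control. Like ITGAV, ITGA5, ITGA6 and ITGB1, both were lower in every library of the 4-library table than in any library of the 5-library table. ITGAE, an alpha chain that binds E-cadherin, lay between 1.60 and 4.15 FPKM and showed no such separation. No group difference of these chains passed the adjusted threshold in limma, where 0% of the 11193 genes did.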
